A study of Mus musculus with 3 samples.

Results

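Among 3470 bone marrow LSK cells that the authors kept, the 90 cells richest in macrophage transcripts are described here. LSK cells lack lineage markers and carry Sca1 and Kit, the sort that holds blood stem cells and multipotent progenitors. The members were chosen by 5 genes: for each cell the UMIs (unique molecular identifiers, 1 per captured RNA molecule) of C1qa, C1qb, C1qc, Vcam1 and Hmox1 were summed and expressed per 10000 gene UMIs of that cell, and the 90 highest values were taken. The levels of these 5 genes and the total UMIs of a cell therefore selected the members and are given as description, without a test. The other 3380 kept cells are called other cells.

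Both genotypes were sampled with 2 mice each, labelled Helios-deficient and wild type. Helios is a zinc finger transcription factor encoded by Ikzf2. Each mouse's cells carried its own hashtag antibodies against CD45 and MHC class I, and 4 surface proteins (CD150, CD48, CD135, which is Flt3, and CD41) were read through antibodies with DNA tags. A single droplet run took a pool with 2500 cells from each mouse, per the labels, and from it RNA, tags and hashtags were sequenced as 3 libraries that share the same 4108 barcodes. The labels give neither the strain and age of the mice nor the part of Ikzf2 that is missing, so the genotypes are used as labelled. Ikzf2 stood at 54.5 and 135 CPM (counts per 1000000 UMIs of the same cells) in members of the Helios-deficient mice, with 44.3 and 71.7 CPM in members of the wild-type mice. A 3′ library can count a transcript that lacks an internal part, so this level does not check the deletion.

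Bone marrow macrophages engulf ageing red cells and expelled nuclei, recycle the iron of heme, and form the centre of the islands on which red cells mature. C1qa, C1qb and C1qc encode the chains of C1q, the recognition molecule of the classical complement pathway, which tissue macrophages secrete. Vcam1 encodes the adhesion molecule by which central macrophages hold blood cells through the integrin VLA-4, and Hmox1 encodes heme oxygenase, which splits heme. Macrophages are mature cells and are not LSK cells.

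The C1q genes lie side by side on chromosome 4 (GRCm38.p6, RefSeq: C1qa 136895916 to 136898844, C1qb 136880126 to 136886200, C1qc 136889801 to 136892936). Hmox1 lies on chromosome 8 (75093618 to 75100593) and Vcam1 on chromosome 3 (116110020 to 116129688). Promoter sequences from RefSeq (250 bases before to 50 after the gene start) were available for 2 of the 5 rule genes. They are shown with the window that the same table gives for Fcna, the gene outside the rule with the largest rise in members. The Fcna window lies inside the RefSeq gene interval (25624665 to 25635440), so it belongs to a start within that interval and not to its outer end. Capitals mark GAGGAA or its reverse complement TTCCTC, a core that the macrophage factor PU.1 (encoded by Spi1) is known to bind. This core was found in 28.3% of all 32851 promoters in the table, so a match is a description of letters and not of a bound site.
Fcna (GRCm38.p6, chr2:25627925-25628224, minus strand): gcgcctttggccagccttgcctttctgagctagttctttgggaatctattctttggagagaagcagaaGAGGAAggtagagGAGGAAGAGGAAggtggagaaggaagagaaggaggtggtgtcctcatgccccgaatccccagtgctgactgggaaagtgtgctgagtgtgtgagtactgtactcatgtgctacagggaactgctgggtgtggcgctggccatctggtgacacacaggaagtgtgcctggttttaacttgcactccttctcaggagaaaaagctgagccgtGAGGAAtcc
C1qb (GRCm38.p6, chr4:136886151-136886450, minus strand): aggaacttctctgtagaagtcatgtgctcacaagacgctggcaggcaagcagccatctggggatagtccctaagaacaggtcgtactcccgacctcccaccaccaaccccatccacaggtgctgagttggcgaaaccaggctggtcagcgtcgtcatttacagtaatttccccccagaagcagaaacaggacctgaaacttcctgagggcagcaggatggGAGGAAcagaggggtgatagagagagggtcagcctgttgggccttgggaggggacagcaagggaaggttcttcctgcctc
C1qc (GRCm38.p6, chr4:136892865-136893164, minus strand): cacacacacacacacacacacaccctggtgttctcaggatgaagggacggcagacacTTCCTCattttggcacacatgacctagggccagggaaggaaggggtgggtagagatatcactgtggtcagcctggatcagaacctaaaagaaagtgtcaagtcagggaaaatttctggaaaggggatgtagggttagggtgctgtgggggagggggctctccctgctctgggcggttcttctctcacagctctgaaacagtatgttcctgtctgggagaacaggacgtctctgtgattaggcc
The Fcna window held the core 4 times, 2 of them back to back, whereas those of C1qb and C1qc held it once each. Among all promoters in the table, 41 (0.125%) held it at least 4 times. The limit of 4 is the count of Fcna itself, which was picked for its rise in members, so this share is no test.

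The value that defined the members fell off steadily below its highest cell and showed no gap at the limit. The highest member stood at 209, the next at 22.5, and the median at 4.22 UMIs per 10000. The lowest 3 members stood at 2.28, 2.24 and 2.24, and the highest 3 cells outside at 2.23, 2.21 and 2.20. The lowest member held 6 UMIs of the 5 genes among 26817, and the highest cell outside held 1 among 4484. Of the other cells, 3083 held no UMI of any of the 5 genes and 297 (8.79%) held at least 1.

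**Figure D1:**
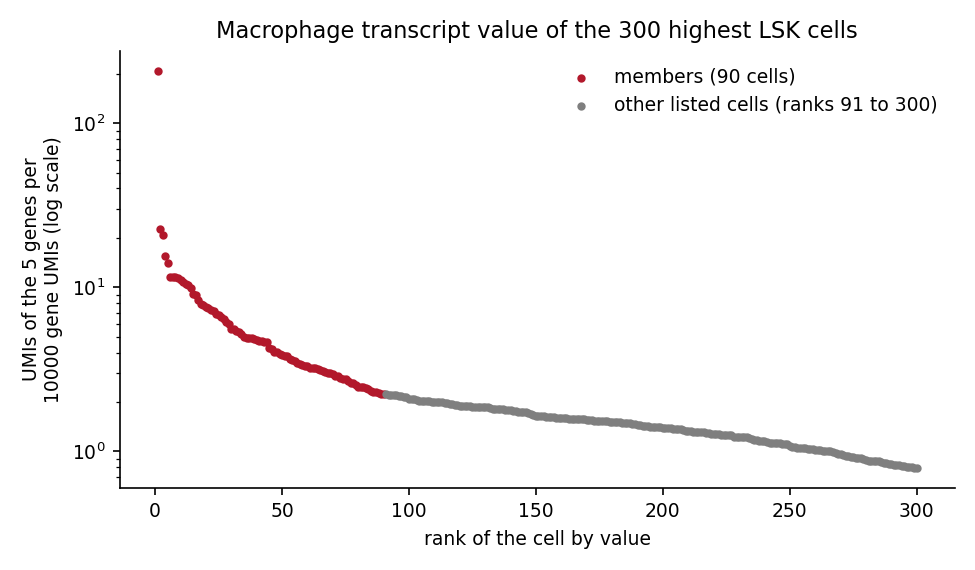
UMIs of the 5 genes per 10000 gene UMIs (vertical axis, log scale) for the 300 kept cells with the highest value, by rank; red points are the 90 members and grey points other cells. The curve passes the limit between 2.24 and 2.23 without a step, and 1 member stands far above the rest at 209.

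Most members rested on few molecules. Their median was 3 UMIs of the 5 genes (range 1 to 17), with 7 members at 1 UMI, 29 at 2 and 54 at 3 or more. At least 2 of the 5 genes were found in 68 members and in 37 other cells, and all 3 C1q chains in 17 members and 0 other cells. A C1q UMI was present in 70 members and absent in 20, of which 17 held Hmox1 alone and 1 held Vcam1 alone. The cell with the highest value, in wild-type mouse 2, had 12 UMIs of the 5 genes among only 575 in 375 genes, with 13 of Ftl1, 12 of Apoe and 5 of Ctsb, and 0 of Kit, Ly6a (Sca1) and Cd34. The next 3 cells held 17 of 7546, 16 of 7677 and 9 of 5777 UMIs, and each held Kit and Cd34 UMIs as well as macrophage UMIs.

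By mouse, C1qa reached 164 and 79.3 CPM in members of the Helios-deficient mice and 103 and 135 CPM in members of the wild-type mice. In other cells it stood at 0.881 and 0.853 CPM in Helios-deficient mice, with 0.982 and 2.37 CPM in wild-type mice. C1qb was at 66.4 to 109 CPM in members and at 0.982 to 3.24 CPM in other cells, and C1qc at 66.4 to 164 CPM against 1.06 to 2.62 CPM. Vcam1 was at 37.3 to 90.8 CPM in members and at 0.196 to 1.5 CPM in other cells. Hmox1 was the most abundant of the 5, at 155 to 206 CPM in members and 2.65 to 8.23 CPM in other cells. C1qa was found in 47 of 90 members (52.2%, exact binomial 95% interval 41.4 to 62.9%) and in 40 of 3380 other cells (1.18%, 0.847 to 1.61%). After every cell was thinned to 5000 UMIs, which left out 16 members and 316 other cells, the shares were 39.2% and 0.587%. LSK cells are not known to express C1q, and the source of the C1q UMIs in other cells was not tested.

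Total UMIs enter the value as its denominator, so members tend to be shallow. Their median was 6721.5 UMIs and 2450 genes, against 7927.5 UMIs and 2700.5 genes in other cells, and it was lower in members of all 4 mice. Summed over members, the Helios-deficient mice gave 55038 and 214320 UMIs and the wild-type mice 135481 and 348913, while other cells gave 5674949 to 10182118 UMIs per mouse. A single UMI in the members of Helios-deficient mouse 1 was therefore worth 18.2 CPM. The median mitochondrial share was 2.69% in members and 2.52% in other cells. Because depth is part of the choice, each comparison of members with other cells was repeated with the 900 other cells nearest in depth to the members (10 per member, from the same mouse, median 6764 UMIs), an alternative added after the data were seen.

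Outside the rule, single macrophage genes such as Fcna, Slc40a1 and Ftl1 were higher in members, and Dntt, a gene of lymphoid priming, was lower. Of 10066 genes tested, 68 (0.676%) passed an edgeR adjusted p of 0.05, 16 higher (0.159%) and 52 lower (0.517%), with a median log2 fold change of −0.05 over all genes tested. Of the 16 higher genes, 7 passed the filter on low counts only because of their level in members, as did 372 of all genes tested, whereas 51 of the 52 lower genes passed it on other cells alone. Against depth-matched cells 20 genes (0.199%) passed, 10 higher (0.0993%) and 10 lower (0.0993%), and 19 of these 20 were among the 68 (the exception was Ighm). With no block for the mouse 20 genes passed, and with DESeq2 only 5 (Ftl1, Ctsb, Dntt, Tuba1b and H2afz). DESeq2 gave no adjusted p for 8196 genes, among them Fcna, Hpgd and Slc40a1, so it could not call these. Leaving out each mouse in turn gave 22 to 50 calls, lowest without Helios-deficient mouse 2, and 10 genes passed in all 4 of these fits: Fcna, Hpgd, Slc40a1, Dntt, Car1, Ly6c2, Elane, Tuba1b, Tubb5 and H2afz. Of these, Fcna, Hpgd and Slc40a1 are among the 7 that entered the test only through members, so passing these fits is no independent support for them.

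**Figure D2:**
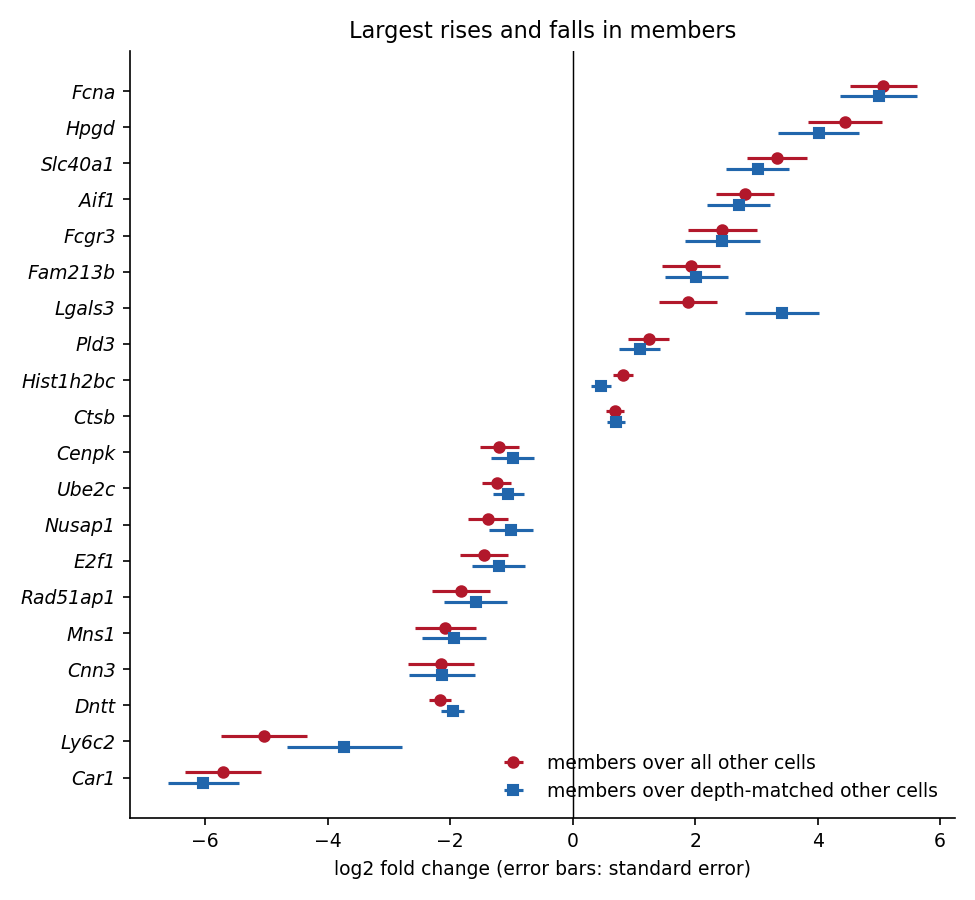
Log2 fold change of members over other cells (horizontal axis, bars show the standard error) for the 10 largest rises and 10 largest falls; red circles compare with all other cells and blue squares with depth-matched other cells. Fcna, Hpgd and Slc40a1 lie above 3 in both comparisons, and Car1 lies below −5 in both on the strength of 1 UMI in members.

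The largest rise was in Fcna, which encodes ficolin A, a lectin of tissue macrophages that starts the complement cascade (ENSMUSG00000026938, chromosome 2, 25624665 to 25635440). Its level was 36.3 and 23.3 CPM in members of the Helios-deficient mice and 14.8 and 37.3 CPM in members of the wild-type mice. In other cells it was 0.529 and 0.365 CPM in Helios-deficient mice and 0.295 and 1.5 CPM in wild-type mice. The lowest member level lay above the highest level in other cells, and the log2 fold change was 5.07 (SE 0.55, edgeR adjusted p = 7.3e-17, higher in 4 of 4 mice). Fcna entered the test only because members reached the filter, so neither its p nor the lack of overlap is independent support. With no filter the log2 fold change was 5.03 (adjusted p = 6.7e-16). The finding rests on 22 UMIs in 20 of 90 members (22.2%, 14.1 to 32.2%), against 21 UMIs in 20 of 3380 other cells (0.592%, 0.362 to 0.912%). After thinning to 5000 UMIs the shares were 9.46% and 0.424%.

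Hpgd encodes the enzyme that inactivates prostaglandins (ENSMUSG00000031613). It was at 36.3 and 14.0 CPM in members of the Helios-deficient mice, with 22.1 and 22.9 CPM in members of the wild-type mice, against 0.352 and 0.487 CPM in other cells of Helios-deficient mice and 0.589 and 1.62 CPM in other cells of wild-type mice. The rise on the log2 scale was 4.44 (SE 0.60, edgeR adjusted p = 3.1e-10), from 16 UMIs in 15 members. The iron exporter ferroportin is encoded by Slc40a1 (ENSMUSG00000025993). Its transcript stood at 72.7 and 23.3 CPM in members of the Helios-deficient mice, with 14.8 and 28.7 CPM in members of the wild-type mice, against 1.23 and 3.29 CPM in other cells of Helios-deficient mice and 1.87 and 2.99 CPM in other cells of wild-type mice. The log2 fold change was 3.34 (SE 0.48, edgeR adjusted p = 7.1e-09), and 20 members and 65 other cells carried a UMI. For both genes the groups did not overlap, but the filter fixed this. All 4 sums of other cells lay below it, so each gene needed all 4 member sums above it to be tested. Both also entered the test only through members, and with no filter they stood at 4.41 (adjusted p = 1.4e-09) and 3.29 (adjusted p = 1.3e-08).

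A further 3 genes of macrophages and related myeloid cells rose by more than 1.8 on the log2 scale but lost the call without 1 or more mice. All 3 passed the filter only through members, and with no filter their adjusted p was 5.3e-06 for Aif1, 0.0072 for Fcgr3 and 0.025 for Lgals3. Aif1, which encodes a cytoskeletal protein of macrophages and microglia, changed by 2.82 (SE 0.48, edgeR adjusted p = 2.6e-06), and by 2.39 (adjusted p = 0.063) without Helios-deficient mouse 2. Fcgr3, a receptor for antibody-coated particles, changed by 2.45 (SE 0.56, adjusted p = 0.0047), and by 2.19 (adjusted p = 0.15) without Helios-deficient mouse 1, and by 2.07 (0.26) when wild-type mouse 1 was left out. Lgals3, which encodes the lectin galectin-3, changed by 1.88 (SE 0.47, adjusted p = 0.018). It changed by 1.82 (adjusted p = 0.071) with Helios-deficient mouse 1 left out, by 1.41 (0.58) with wild-type mouse 1 left out and by 2.07 (0.33) with wild-type mouse 2 left out.

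**Figure D3:**
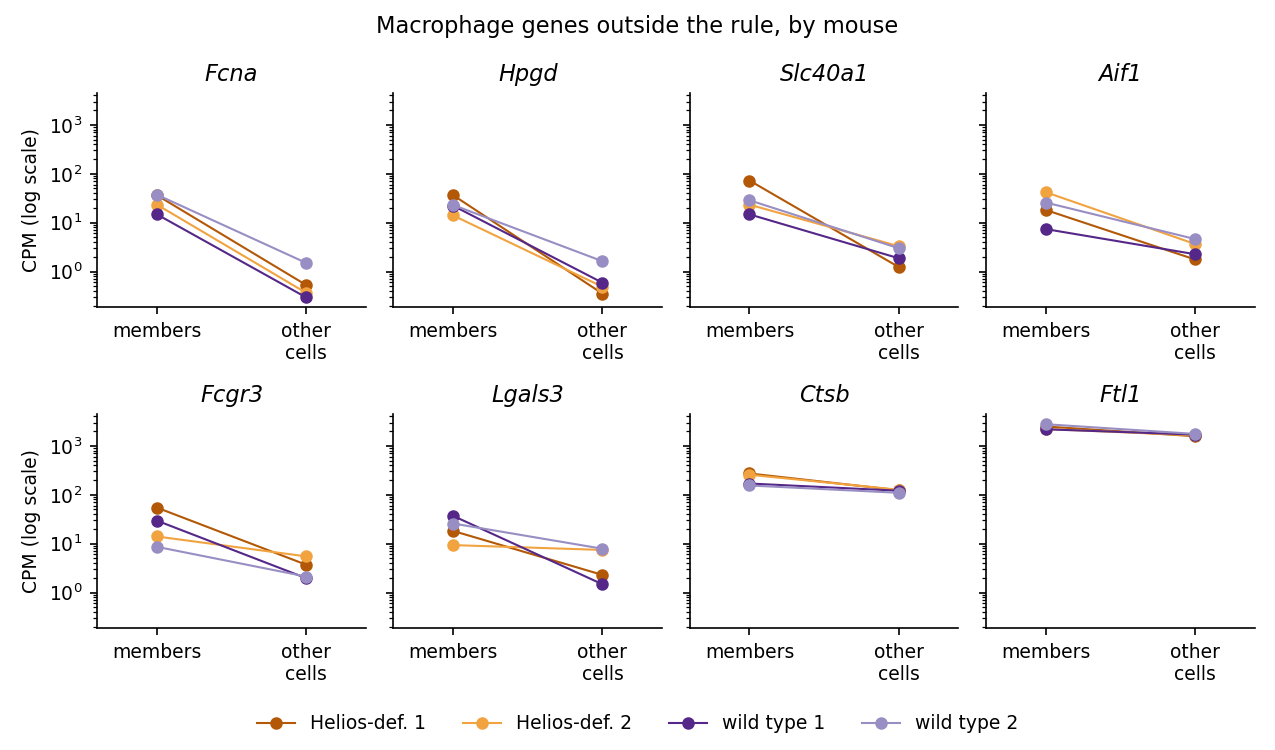
CPM (vertical axis, log scale) of 8 genes outside the rule in members (left) and other cells (right), with 1 line per mouse. The 8 were picked from the genes called higher in members, and Hpgd and Lgals3 are not in the macrophage lists. Fcna, Hpgd and Slc40a1 are higher in members of every mouse and the 2 groups do not overlap, which the filter on low counts required of them. Ctsb and Ftl1 are abundant in both and differ by less than 1 on the log2 scale.

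Of genes for the lysosome and for iron and lipid handling, which LSK cells also express, a few were called higher, by small amounts apart from Slc40a1. They were 1 of 17 tested lysosome genes, 2 of 7 iron and heme genes and 2 of 4 lipid and secreted genes. Over all 10066 genes tested 0.159% were called higher. Ftl1, the ferritin light chain, was at 2489 and 2221 CPM in members of the Helios-deficient mice, with 2185 and 2774 CPM in members of the wild-type mice. In other cells it ranged from 1575 to 1756 CPM, below every member value, and its log2 fold change was 0.46 (SE 0.07, edgeR adjusted p = 7.0e-07; 0.37, adjusted p = 0.074, without wild-type mouse 2). Ctsb, the lysosomal protease cathepsin B, was at 273 and 257 CPM in members of the Helios-deficient mice, with 170 and 155 CPM in members of the wild-type mice, against 110 to 127 CPM in other cells. It changed by 0.70 (SE 0.15, adjusted p = 0.00099), and by 0.52 (adjusted p = 0.48) without Helios-deficient mouse 2. Apoe, the lipid carrier apolipoprotein E, was at 727 and 1008 CPM in members of the Helios-deficient mice, with 376 and 596 CPM in members of the wild-type mice. Other cells held 503 and 575 CPM in Helios-deficient mice and 376 and 426 CPM in wild-type mice, so the groups overlapped. Its log2 fold change of 0.47 (SE 0.09, adjusted p = 0.00027) was 0.27 (adjusted p = 0.83) without Helios-deficient mouse 2, and 0.46 (0.056) when wild-type mouse 2 was left out. Selenop, a selenium carrier, and Pld3, a lysosomal nuclease, changed by 0.52 (adjusted p = 0.039) and 1.24 (adjusted p = 0.038), but were not called against depth-matched cells (0.39, adjusted p = 0.62, and 1.09, adjusted p = 0.26). Selenop also lost its call without any mouse but Helios-deficient mouse 1 (0.44 to 0.60, adjusted p 0.16 to 0.53), and Pld3 without any but wild-type mouse 1 (1.004 to 1.49, adjusted p 0.12 to 0.61).

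The 6 lists of macrophage genes that leave out the 5 rule genes held 71 genes, of which 39 passed the filter on low counts. Of these 39, 8 were called higher and 0 lower (14 higher and 1 lower at an unadjusted p under 0.05), and their median log2 fold change was 0.26, against −0.05 over all genes tested. Over all genes tested 0.159% were called higher and 0.517% lower. The filter needs 3.32 CPM in at least 4 sums, and 6 of the 39, with 4 of the 8 calls, passed only because of their level in members. That count is therefore a description and not a sign that macrophage genes as a whole differ. Against depth-matched cells 7 of the 39 were called higher and 0 lower. Of 3 tested macrophage transcription factors 0 were called, with a median of −0.43. Irf8 was at −1.07 (SE 0.34, edgeR adjusted p = 0.17), Cebpb at −0.43 (0.81) and Spi1 at 0.0036 (0.998). The summed level of that list was lower in members of 4 of 4 mice. Of 5 tested Fc receptor and adaptor genes 2 were called higher (Aif1 and Fcgr3). Fcer1g (0.44, adjusted p = 0.30) and Tyrobp (0.19, 0.93) were not called.

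The receptors that define macrophages were close to the limit of detection. Of 18 receptor and scavenger genes only Fcna, Axl and Itgam were tested. Axl, a receptor for dying cells, was at 1.62 on the log2 scale (SE 0.71, edgeR adjusted p = 0.57), and Itgam (CD11b) at −1.03 (adjusted p = 0.93). Among those below the filter, Cd5l, a protein secreted by macrophages, had 16 UMIs in 14 members and 13 UMIs in 13 other cells, with 0 in members of wild-type mouse 1. Mrc1, the mannose receptor, was found in 7 members and 14 other cells, and Adgre1 (F4/80) in 4 members and 2 other cells. Csf1r, the receptor for the macrophage growth factor CSF1, was found in 1 member and 89 other cells. Mertk, Marco, Clec4f, Clec4n, Stab1 and Msr1 had 0 UMIs in members. A count of 0 of 90 members allows a share of up to 3.33% with a UMI.

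Receptor UMIs were unevenly spread among members, along with depth. A UMI of the 18 receptor and scavenger genes was found in 34 of the 54 members with at least 3 rule UMIs (63.0%) and in 6 of the 36 with fewer (16.7%), at median depths of 8802.5 and 5862.5 UMIs. It was found in 35 of 70 members with a C1q UMI and in 5 of 20 members without. In other cells the share was 13.1%. The part of depth in these shares was not tested.

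Hpgd, Lgals3 and Pld3 are not in the macrophage lists. Besides them, Fam213b (log2 fold change 1.93), Cd86 (1.95), Hist1h2bc (0.82), Lst1 (0.63) and Ltb (0.63) outside those lists were called higher. Cd86 encodes a costimulatory ligand of antigen-presenting cells, and Ltb encodes lymphotoxin beta. Without wild-type mouse 1, Hist1h2bc, Lst1 and Ltb lost their calls (0.50, 0.46 and 0.46, edgeR adjusted p 0.52, 0.52 and 0.44). Fam213b lost its call without Helios-deficient mouse 2 (1.91, adjusted p = 0.22) and likewise without wild-type mouse 2 (1.53, 0.76), and Cd86 without any of the 4 mice (1.70 to 2.21, adjusted p 0.080 to 0.67). Cd86 passed the filter only through members, and with no filter it was not called (1.90, adjusted p = 0.069). Against depth-matched cells only Fam213b was called among these 5.

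Among genes lower in members of all 4 mice, Dntt had the smallest p. It encodes the terminal transferase that adds bases at antigen receptor junctions and marks lymphoid-primed progenitors (ENSMUSG00000025014, chromosome 19, 41029275 to 41059525). Its level was 18.2 and 88.7 CPM in members of the Helios-deficient mice and 44.3 and 54.5 CPM in members of the wild-type mice. In other cells it was 185 and 308 CPM in Helios-deficient mice and 245 and 250 CPM in wild-type mice, so the groups did not overlap. The log2 fold change was −2.16 (SE 0.18, edgeR adjusted p = 6.6e-29), −1.96 (adjusted p = 6.0e-21) against depth-matched cells, and −2.40 to −2.09 with each mouse left out. A Dntt UMI was present in 16 of 90 members (17.8%, 10.5 to 27.3%) and in 970 of 3380 other cells (28.7%, 27.2 to 30.3%). After thinning the shares were 13.5% and 24.4%.

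Of 12 lymphoid-primed genes 10 were tested, and 2 were called lower, Dntt and Wfdc17, with a list median of −0.69. Over all genes tested 0.517% were called lower. Satb1, a chromatin organiser of lymphoid progenitors, was at −0.84 (SE 0.26, edgeR adjusted p = 0.12), and Flt3, the cytokine receptor of lymphoid-primed progenitors, at −0.55 (SE 0.18, adjusted p = 0.20). Wfdc17, a small secreted protein first described in activated macrophages and microglia, changed by −0.58 (adjusted p = 0.0030) and by −0.75 (adjusted p = 1.4e-05) against depth-matched cells. It lost the call without Helios-deficient mouse 2 (−0.58, adjusted p = 0.10), and also when wild-type mouse 2 was left out (−0.43, 0.64).

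Igha, an antibody heavy chain, was called lower with a still smaller p (−5.54, edgeR adjusted p = 6.9e-38), but 7218 of its UMIs lay in 1 other cell of Helios-deficient mouse 2, and without that mouse its log2 fold change was 0.28. Car1, Ly6c2 and Elane also fell, and members held at most 4 UMIs of each. Car1, the carbonic anhydrase of erythroid progenitors, had 1 UMI in members and 2068 in 137 other cells, up to 205 in a cell. The ratio of its UMIs per total UMIs in members to that in other cells was 0.0206 (95% counting interval 0.000521 to 0.115). Ly6c2, a monocyte gene, had 1 UMI in members and 1724 in 75 other cells, a ratio of 0.0247 (0.000625 to 0.138). By cell, 1 of 90 members and 137 of 3380 other cells carried Car1, and 1 of 90 and 75 of 3380 carried Ly6c2. Both intervals take each UMI as independent and leave out this clumping in few cells, so they are too narrow. Elane, neutrophil elastase, had 4 UMIs in members and 2715 in other cells, up to 550 in a cell. The share of cells with an Elane UMI was 4.44% in members and 4.91% in other cells, and Elane was called lower against all other cells (−3.65, edgeR adjusted p = 3.8e-12) but not against depth-matched cells (−1.95, adjusted p = 0.37). In the myeloid-primed list 4 of 10 tested genes were called lower (Mpo, Elane, Ctsg and Calr), beside 0.517% of all genes tested, and 0 against depth-matched cells. In the erythroid list Car1 alone was called among 7, and Klf1, the master factor of the red cell lineage, was at −3.05 (SE 1.03, adjusted p = 0.24).

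Of 30 tested cell cycle genes 8 were called lower and 0 higher in members, of which 1 was called against depth-matched cells. Over all genes tested 0.517% were called lower, and 0.0993% against depth-matched cells. All 15 tested S phase genes and all 15 tested G2 and M phase genes had a log2 fold change below 0, as had 5609 of the 10066 genes tested, with medians of −0.43 and −0.68, and 3 and 5 of them were called. Ube2c, which drives the exit from mitosis, was at 0 and 28.0 CPM in members of the Helios-deficient mice, with 14.8 and 74.5 CPM in members of the wild-type mice, against 80.6 to 116 CPM in other cells. Its log2 fold change was −1.24 (SE 0.23, edgeR adjusted p = 7.0e-05), and −1.003 (adjusted p = 0.11) without Helios-deficient mouse 2. Top2a, the topoisomerase that untangles replicated DNA, changed by −0.68 (adjusted p = 0.0071), and by −0.54 to −0.64 when wild-type mouse 1 or either Helios-deficient mouse was left out (adjusted p 0.080 to 0.37). The tubulin gene Tuba1b fell by 0.53 on the log2 scale (adjusted p = 9.6e-07) and kept its call with each mouse left out.

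These falls moved with depth. Against depth-matched cells the S phase and G2 and M phase medians were −0.17 and −0.38, with 0 and 1 genes called (Ube2c, −1.05, edgeR adjusted p = 0.016), and Tuba1b was at −0.27 (adjusted p = 0.31). With members taken by the raw UMI sum of the 5 genes, not scaled to depth, the G2 and M phase median was 0.34, with 1 gene called higher and 0 lower.

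Stem cell genes were not called in either direction. Of 22 listed genes 21 were tested, 16 with a log2 fold change above 0 and 5 below, with a median of 0.24, and 0.07 against depth-matched cells. Of all 10066 genes tested 4457 lay above 0 and 5609 below. At an unadjusted p under 0.05, 4 of the 21 were higher and 0 lower, beside 214 higher and 492 lower of all genes tested. Among the 4 was Meis1, a homeobox factor needed for stem cell upkeep, at 0.38 (SE 0.13, edgeR adjusted p = 0.30). The genes of the sort, Kit and Ly6a, were not called. Kit averaged 93.5 ± 23.1 CPM in members and 89.3 ± 6.0 CPM in other cells (SD, n = 4 mice each), and differed by 0.02 on the log2 scale (SE 0.19, adjusted p = 0.995). Ly6a averaged 183 ± 33 CPM in members and 146 ± 13 CPM in other cells, and differed by 0.24 (SE 0.15, adjusted p = 0.84). A Kit UMI was found in 53.3% of members and 53.0% of other cells, and in 36.5% and 35.3% after thinning.

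B cell transcripts, which had been proposed as a second mark of these cells, were not called higher in members. Igkc, the kappa light chain constant region, was at 54.5 and 32.7 CPM in members of the Helios-deficient mice, with 44.3 and 48.7 CPM in members of the wild-type mice. It was at 33.1 and 988 CPM in other cells of Helios-deficient mice, with 4092 and 33.4 CPM in other cells of wild-type mice, and a single other cell held up to 17822 UMIs. Its log2 fold change was −4.50 (SE 1.16, edgeR adjusted p = 0.63). No member held more than 2 Igkc UMIs, and the share with a UMI was 27.8% (18.9 to 38.2%) in members and 26.8% (25.3 to 28.3%) in other cells. These intervals pool the cells of all mice, cover counting error only and are no test. Ighm, the heavy chain of IgM, was at −2.34 (SE 0.87, adjusted p = 0.79) against all other cells and was called lower against depth-matched cells (−0.81, SE 0.19, adjusted p = 0.020). Of 18 listed B cell genes 11 had 0 UMIs in members, among them Cd79a, Ms4a1, Pax5 and Ebf1, and their level in other cells was not compared. Cd79b, a further B cell gene, averaged 42.8 CPM in members and 43.2 CPM in other cells. It differed by 0.18 on the log2 scale (SE 0.26, edgeR adjusted p = 0.96).

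Cd74, the invariant chain of MHC class II, was at 127 and 131 CPM in members of the Helios-deficient mice, with 36.9 and 158 CPM in members of the wild-type mice. In other cells it was at 102 and 76.2 CPM in Helios-deficient mice, with 129 and 105 CPM in wild-type mice. The groups overlapped, and its log2 fold change was 0.25 (SE 0.17, edgeR adjusted p = 0.89). The share of cells with a Cd74 UMI was 36.7% (26.8 to 47.5%) in members and 20.6% (19.3 to 22.0%) in other cells, and 31.1% and 15.1% after thinning. A larger share of members thus held a Cd74 UMI, but cells pooled over mice are not replicates and the difference in share was not tested. None of the 8 tested MHC class II genes was called by edgeR, with 1 higher and 0 lower at an unadjusted p under 0.05 and 0 called against depth-matched cells.

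Many markers of other cell types were not detected in members, whose sums held 753752 UMIs against 32082620 in other cells. Genes at a low level can be at 0 at this depth, and 6 of 18 macrophage receptor and scavenger genes were at 0 as well. The share of all genes at 0 is not given here, so the counts that follow are a description only. Of 10 neutrophil genes 7 were at 0 UMIs, as were 5 of 9 monocyte, 7 of 8 dendritic cell, 7 of 10 T and NK cell, 4 of 8 plasma cell, 6 of 8 stromal and 2 of 9 endothelial genes. Summed neutrophil genes ranged over the mice from 0.0860 to 0.545 UMIs per 10000 in members and from 0.0549 to 0.183 in other cells, higher in members of 4 of 4 mice. In all, these genes had only 10 UMIs in 8 members, and 262 UMIs in 140 other cells. Their part in the results was not tested. Monocyte genes ranged from 0.607 to 1.03 in members and from 0.649 to 1.98 in other cells. No gene of the megakaryocyte and platelet, endothelial, interferon response, immediate early or Ikaros family lists was called. Of 10 contact partners of macrophages on blood cells, 8 were tested and 0 called, with a median of −0.21.

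No difference in a surface tag between members and other cells passed its test, and with 4 mice none could. On the scale of log2(tag UMIs + 1), the difference of members minus other cells, averaged over the 4 mice, was −0.06 ± 0.06 for CD41, 0.01 ± 0.20 for CD48, −0.0041 ± 0.0602 for CD150 and −0.04 ± 0.19 for CD135 (SD). The exact two-sided sign-flip permutation test over the 4 mice gave an adjusted p of 1 for each of the 4 tags, and the smallest p it allows is 0.125. The CD48 difference was above 0 in both Helios-deficient mice (0.25 and 0.093) and below 0 in both wild-type mice (−0.17 and −0.13). CD135 split alike (0.17 and 0.028 in Helios-deficient mice, −0.28 and −0.073 in wild-type mice), and neither split was tested. With 180 members both tags lay below 0 in Helios-deficient mouse 2 (CD48 −0.060, CD135 −0.015). The median member carried 103 CD48, 76.5 CD150, 37 CD135 and 32 CD41 tag UMIs, and the median other cell 112 CD48, 78 CD150, 38 CD135 and 33 CD41 tag UMIs. Measured per 1000 gene UMIs, which enters the rule, CD41, CD48 and CD150 tags were higher in members of 4 of 4 mice. The tag genes were not called: Cd48 was at −0.02 (SE 0.14, edgeR adjusted p = 0.995), Slamf1 (CD150) at 0.77 (SE 0.61, 0.90) and Itga2b (CD41) at 0.29 (SE 0.25, 0.92).

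**Figure D4:**
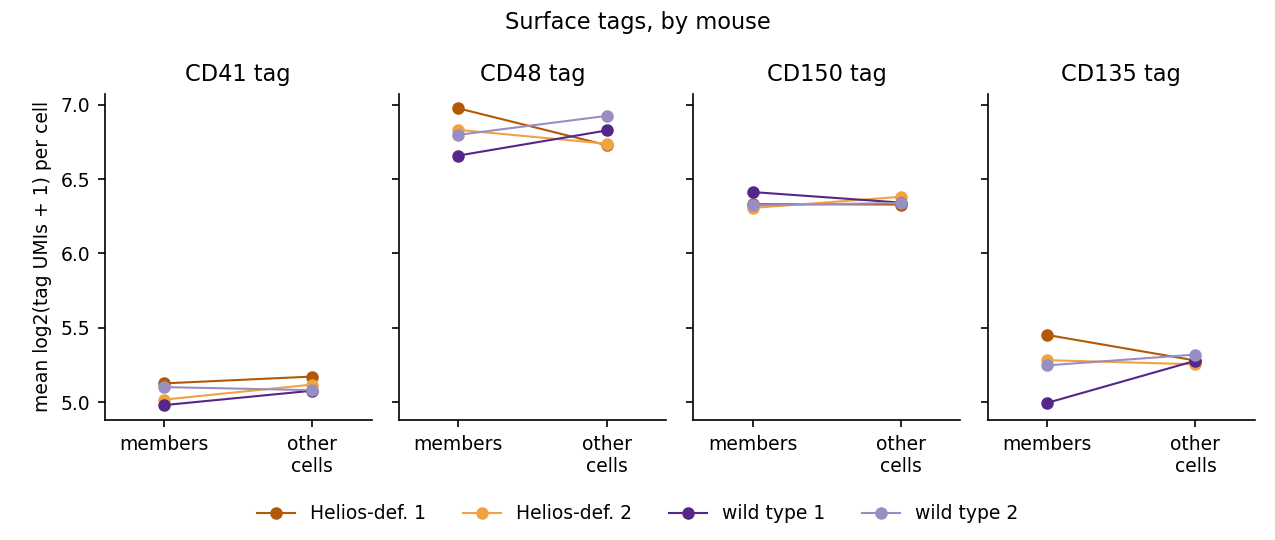
Mean log2(tag UMIs + 1) per cell (vertical axis) of the 4 surface tags in members (left) and other cells (right), with 1 line per mouse. Lines run both up and down for each tag.

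Hashtags pointed to 1 mouse in members as in other cells, a trait fixed by the kept list, which holds no hashtag doublets. Cells of the same mouse joined in 1 droplet would share a hashtag, so these values cannot show them. A member's own hashtag made up a median of 86.8% of its hashtag UMIs, against 84.1% in other cells, and was higher in members of each of the 4 mice. The medians were 77.9% against 77.4% in Helios-deficient mouse 1, 89.0% against 88.4% in Helios-deficient mouse 2, 80.8% against 80.2% in wild-type mouse 1 and 88.5% against 87.0% in wild-type mouse 2.

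Members were unevenly spread over the mice. They were 7 of 557 cells (1.26%, exact binomial interval 0.507 to 2.57%) in Helios-deficient mouse 1 and 23 of 824 (2.79%, 1.78 to 4.16%) in Helios-deficient mouse 2. They were 19 of 1175 (1.62%, 0.976 to 2.51%) in wild-type mouse 1 and 41 of 914 (4.49%, 3.24 to 6.04%) in wild-type mouse 2. The mean share was 2.02 ± 1.09% in Helios-deficient mice and 3.05 ± 2.03% in wild-type mice (SD, n = 2 each), a difference of −1.03 percentage points. The exact two-sided permutation test gave p = 0.667, and with 2 mice against 2 it cannot go below 0.333. The 2 mice of each genotype lay further apart than the genotype means, and without wild-type mouse 2 the difference was 0.41. With members of at least 3 rule UMIs only, the shares were 1.08% and 1.58% in Helios-deficient mice and 0.766% and 2.84% in wild-type mice. In every choice of members shown here wild-type mouse 2 had the highest share, and its other cells also had the highest level of the 5 genes, at 18.0 CPM against 6.97 to 10.96 CPM in the other 3 mice.

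**Figure D5:**
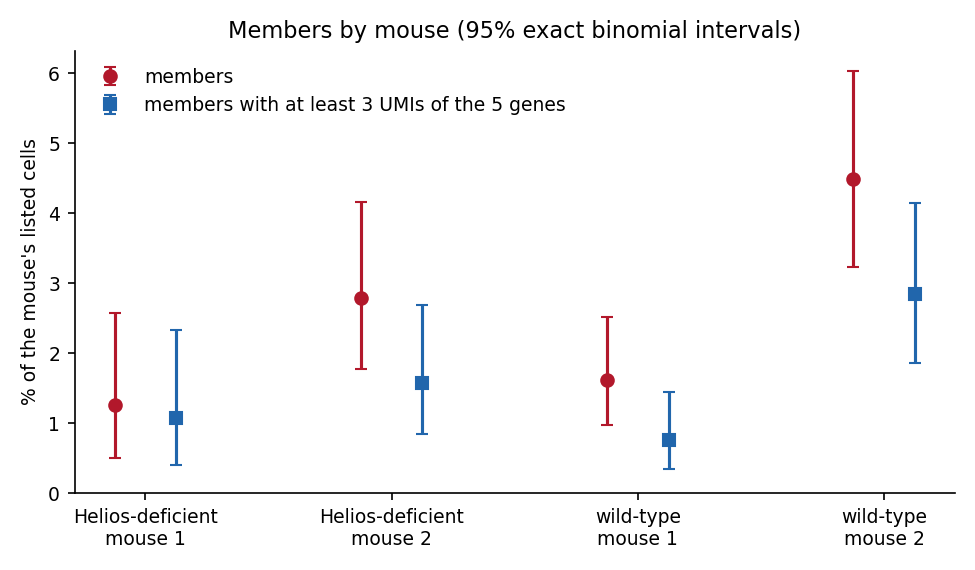
Share of each mouse's kept cells (vertical axis, percent) that are members (red circles) or members with at least 3 UMIs of the 5 genes (blue squares), Helios-deficient mice left and wild-type mice right, with exact binomial 95% intervals that cover counting error only. The highest share, 4.49%, is in a wild-type mouse and the lowest, 1.26%, in a Helios-deficient mouse, and the genotypes overlap.

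Within members, no gene was called between genotypes. Of 2803 genes tested in the 4 member sums, 0 (0%) passed an edgeR adjusted p of 0.05, with 130 at an unadjusted p under 0.05, and DESeq2 called 0. The smallest p belonged to Ctse, the protease cathepsin E, at 0 and 14.0 CPM in members of the Helios-deficient mice and 103 and 83.1 CPM in members of the wild-type mice. It differed by −2.91 on the log2 scale (SE 0.64, edgeR adjusted p = 0.28). In other cells its fold change was −2.81 (adjusted p = 5.9e-11), and with 180 members Ctse was called. Apoe differed by 0.85 (SE 0.20, adjusted p = 0.28) in members and 0.42 (adjusted p = 0.011) in other cells. The stem cell factor gene Hlf was at 109 and 84.0 CPM in members of the Helios-deficient mice and 236 and 203 CPM in members of the wild-type mice, and differed by −1.23 (SE 0.32, adjusted p = 0.50).

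A test of whether the genotype difference itself differed between members and other cells called 3 of 10066 genes (0.0298%): Pf4, Igha and Ifit1. Pf4, platelet factor 4, had 0 and 8 UMIs in members of the Helios-deficient mice and 11 and 170 in members of the wild-type mice, 170 of them in 13 cells of wild-type mouse 2. Without that mouse its interaction was −2.67 with an edgeR adjusted p of 0.998. Ifit1 had 29 of its 30 member UMIs in 3 cells of Helios-deficient mouse 2, and Igha had 7218 of its 7363 UMIs in other cells in a single cell. Without Helios-deficient mouse 2 the adjusted p was 0.92 for Ifit1 and 0.91 for Igha, and leaving out wild-type mouse 2 gave 0.16 for Ifit1 and 1 for Igha.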

How the data were processed

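Members, gene lists and tests were chosen with earlier results of these data known. The deposited matrix holds raw UMI counts of genes, tags and hashtags. Its header names software version 3.0.2, per the file headers, while Cell Ranger, Seurat 3.0.0 and mm10 are named in the submitters' processing notes. The authors' deposited hashtag calls and list of kept barcodes were used. How they were made is not given in the sources used here. Hashtag doublets were absent from the kept list, and no doublet caller was run.

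Each mouse gave a sum of counts over its members and another over its other cells, so the mouse pairs them. The quasi-likelihood test of edgeR 4.0.16 (robust, TMM, default filter) compared members with other cells, with mouse as block. The 4 mice are the replicates and cells are not. With the block, p-values rest on how the difference within a mouse varies between mice, and not on the spread of levels between mice. The fit also shares information on this spread across genes, so a gene driven by 1 mouse can pass, as Igha did. Within members, the genotype test rests on the spread between mice of a genotype. The 5 rule genes stayed in library totals but out of the tested genes. Genotype was tested in the member sums, and as an interaction with membership. The Benjamini-Hochberg adjustment ran over all genes tested. CPM divides by the sum's total, and standard errors come from the F statistic of each fold change. DESeq2 1.42.0 was an alternative, in which 8196 genes had no adjusted p. The fits were tested on simulated sums in which only abundant genes were changed. That simulation does not cover genes at low counts, such as Fcna, or genes clumped in few cells, such as Igha. Intervals and the floor of 3 counts cover counting error only.

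Genes named are the 10 largest rises and falls with the same direction in 4 mice and a mean of at least 10 CPM, up to 4 of each of 28 lists with the smallest p, the tag genes, Ikzf2, Cd74 and Igkc. Others were named after their values were seen (Cd5l, Mrc1, Adgre1, Csf1r, Cd86, Kit, Ly6a, the genes at 0, Hlf and Ctse).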

Additional observations from a re-analysis of the deposited data

Results flagged for a closer look

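A test of the difference between genotype effects picked out 3 genes. The interaction of genotype with membership was −3.70 for Pf4 (SE 0.41, edgeR adjusted p = 3.5e-15), −7.95 for Igha (SE 1.74, adjusted p = 0.016) and 5.33 for Ifit1 (SE 0.93, adjusted p = 5.7e-05). Pf4 was at 0.0 and 37.3 CPM in members of the Helios-deficient mice and 81.2 and 487 CPM in members of the wild-type mice, where a single member of wild-type mouse 2 held 76 UMIs. Without Helios-deficient mouse 2 the Ifit1 interaction was −6.09 (adjusted p = 0.92) and that of Igha −7.03 (0.91), and without wild-type mouse 2 that of Ifit1 was 4.36 (0.16) and that of Igha −0.25 (1).

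Barcodes outside the kept list also reached the value of the last member. They numbered 7 of 231 hashtag doublets (3.03%, exact binomial 95% interval 1.23 to 6.14%), 4 of 35 barcodes without a hashtag (11.4%, 3.20 to 26.7%) and 23 of 372 single-mouse barcodes that were not kept (6.18%, 3.96 to 9.13%), against 90 of 3470 kept cells (2.59%). Median depth was 12133, 6056 and 1895.5 UMIs in these classes and 7897.5 UMIs in kept cells. At least 3 UMIs of the 5 genes were found in 7 doublets (3.03%), in 0 barcodes without a hashtag, in 9 single-mouse barcodes that were not kept (2.42%) and in 65 kept cells (1.87%).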

How the results depend on the processing

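Calls between members and other cells numbered 68. They were 137 with 180 members, 25 with 45 members, 5 with DESeq2, 17 with members of at least 3 rule UMIs, 20 without a replicate block, 20 against depth-matched cells, 20 with the raw UMI sum, and 22 to 50 with each mouse left out. The unscaled totals, no filter, the filter on the mean, C1q genes alone and leaving out the highest member gave 55 to 100. Macrophage list genes called higher numbered 8, and 2 to 15 over these settings. With the raw UMI sum the fold changes of Birc5 (0.034), Cdca8 (0.17), Cdk1 (0.11), Ctsg (0.080), H2afx (0.020), Hmgb2 (0.0073), Nusap1 (0.13), Top2a (0.040), Tubb4b (0.033) and Ube2c (0.44) turned positive. Igha, called lower at −5.54, was at 0.18 against depth-matched cells and ranged from −7.55 to 0.28 (without Helios-deficient mouse 2) with each mouse left out. Pf4 ranged from −1.84 (adjusted p = 4.9e-07, without wild-type mouse 2) to 0.62.

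Within members, genotype calls numbered 1 with 180 members, 1 with no filter (Ifit1) and 0 to 7 with each mouse left out. Interaction calls numbered 5 with 180 members and 1 to 7 with each mouse left out, and the Ifit1 interaction ranged from −6.09 to 10.7. A genotype left with 1 mouse was assumed to vary like the other. The genotype difference in the share of members was −2.46 to 0.41 percentage points with each mouse left out and −1.46 to −0.39 in the other choices. Tag differences changed sign for CD48 with 180 members (−0.14), for CD150 against depth-matched cells (0.019) and as a share of the 4 tags (0.18), and per 1000 gene UMIs for CD41 (1.47), CD150 (3.65) and CD135 (1.72). With each mouse left out, CD41 ranged from −0.082 to −0.041, CD48 from −0.068 to 0.071, CD150 from −0.029 to 0.019 and CD135 from −0.11 to 0.042. The cause of these shifts was not tested.

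The 90 members limit the depth: their sums hold 753752 UMIs.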
